A study of Mus musculus with 11 samples.

Results

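Aldehyde dehydrogenases (ALDHs) are described here through 10 named genes: *Aldh1a1*, *Aldh1a2*, *Aldh1a3*, *Aldh1a7*, *Aldh2*, *Aldh3a1*, *Aldh3a2*, *Aldh3b2*, *Aldh1l2* and *Aldh7a1*. They are 10 of the 27179 genes counted in each RNA-seq library, and each was found by its symbol. These 10 were chosen with earlier results of these data known. Another 11 genes carry an ALDH name in mouse and serve for comparison. The data are 11 libraries. MaSC/basal cells (CD24+CD29hi, enriched in mammary stem cells), luminal progenitor-enriched cells (LP, CD24+CD29loCD61+) and mature luminal-enriched cells (ML, CD24+CD29loCD61-) have 3 independent samples each, sorted from the mammary glands of wild type FVB/N virgin female mice aged 8 weeks. One library is of mammosphere cells, which are MaSC/basal cells of the same strain, age and genotype kept in non-adherent culture for 1 week. One is of Comma Dβ cells, labelled CommaD-βGeo, an established line that derives from Balb/c mammary tissue in mid-pregnancy. Each gate enriches for a cell type and does not purify it, and MaSC/basal cells include myoepithelial cells.

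ALDHs oxidize aldehydes to acids with NAD or NADP. Aldh1a1, Aldh1a2 and Aldh1a3 turn retinaldehyde into retinoic acid, the ligand of nuclear receptors that act in epithelial differentiation. Aldh2 and Aldh7a1 work largely in mitochondria on small aldehydes and on an intermediate of lysine breakdown, Aldh1l2 belongs to mitochondrial folate metabolism, and the Aldh3 enzymes handle lipid-derived and aromatic aldehydes. High ALDH activity in a fluorescent substrate assay is widely used to isolate stem and progenitor cells from breast tissue, and several members of the family can contribute to that signal. The question taken up here is which members had transcripts in the progenitor-enriched cells that could give such activity. Transcripts were measured and enzyme activity was not.

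Libraries held 19958838 to 75795034 counted reads, so that 3 reads were worth 0.0399 to 0.160 CPM, a gene's reads scaled to the size of its library. The sorted cells carried the markers of their labels: the summed CPM of 5 basal genes was 15230 to 20999 in MaSC/basal libraries and 53.8 to 350 in LP and ML libraries, and that of 4 luminal progenitor genes was 7310 to 9955 in LP and 855 to 2797 in ML. Of the genes behind the gates, *Itgb3* (CD61) had a mean of 223 CPM in LP and 15.7 in ML. Fibroblast markers (6 genes) summed to 285 to 1377 CPM among LP libraries, 409 to 929 among ML, 582 to 864 among MaSC/basal, 2411 in mammospheres and 3670 in Comma Dβ. Their part in the results was not tested, and fewer cells of a type cannot be told apart from less RNA per cell. The first MaSC/basal library, labelled wild type, has a submitted name that contains p53. Its *Trp53* level was 114 CPM, against 120 and 95.3 in the other MaSC/basal libraries, and values that it moved strongly are given with and without it.

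Pairs of near-identical ALDH genes bear on what a read count can mean. *Aldh1a1* (chr19:20492583-20643463) and *Aldh1a7* (chr19:20692953-20727556, GRCm38) lie next to each other, and their coding sequences of 1506 bases are 91.6% identical, with 126 differing bases. Of 2259 stretches of 100 bases in the *Aldh1a1* transcript, the length of the reads used here, 1 also occurs letter for letter in *Aldh1a7*. The first 100 coding bases of each are shown because their 7 differences, in capitals, are also the median over 1407 such stretches along the coding sequences. They span exons 4 and 5 of 16 of the transcript Aldh1a1-206 (chr19:20602012-20602077 and chr19:20610913-20610946, plus strand) and exons 1 and 2 of 13 of Aldh1a7-201 (chr19:20727447-20727512 and chr19:20727029-20727062, minus strand), both from GENCODE M21.
*Aldh1a1*: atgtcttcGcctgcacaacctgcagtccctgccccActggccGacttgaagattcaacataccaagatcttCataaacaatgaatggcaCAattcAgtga
*Aldh1a7*: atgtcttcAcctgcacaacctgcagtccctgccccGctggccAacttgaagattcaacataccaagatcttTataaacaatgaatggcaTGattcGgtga

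The pair *Aldh3b2* and *Aldh3b3* (neighbours on chromosome 19) is harder to separate, with 89.7% identity over 1440 coding bases and one identical run of 255 bases. Of 2043 stretches of 100 bases in *Aldh3b2*, 286 occur letter for letter in *Aldh3b3*. How reads matching both genes were counted is not given in the sources used here, so the division of reads between *Aldh3b2* and *Aldh3b3* is uncertain. *Aldh1a2* and *Aldh1a3* shared no stretch of 100 bases with any other ALDH gene.

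Promoters are shown for *Aldh1a1* and *Aldh1a7*, the neighbouring members that were highest in MaSC/basal cells. RefSeq (GRCm38.p6) gave windows of 300 bases, 250 before and 50 after a start site, for 4 of the 10 members: *Aldh1a1* with 2 start sites, *Aldh1a2*, *Aldh1a7* and *Aldh3a2*. The window of the second *Aldh1a1* start (chr19:20601718-20602017, plus strand) and that of *Aldh1a7* (chr19:20727507-20727806, minus strand) both end in the first codons printed above. Placed base against base they are identical at 177 of 300 positions (59.0%), while the window of the other *Aldh1a1* start is identical to that of *Aldh1a7* at 25.7%. Capitals mark the motifs CCAAT and TATAAA, searched on both strands.
*Aldh1a1*: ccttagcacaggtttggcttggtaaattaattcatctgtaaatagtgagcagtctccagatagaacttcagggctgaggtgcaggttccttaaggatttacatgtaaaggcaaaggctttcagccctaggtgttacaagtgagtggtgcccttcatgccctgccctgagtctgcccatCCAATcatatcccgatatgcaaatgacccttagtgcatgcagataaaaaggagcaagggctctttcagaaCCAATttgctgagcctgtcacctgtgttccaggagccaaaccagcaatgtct
*Aldh1a7*: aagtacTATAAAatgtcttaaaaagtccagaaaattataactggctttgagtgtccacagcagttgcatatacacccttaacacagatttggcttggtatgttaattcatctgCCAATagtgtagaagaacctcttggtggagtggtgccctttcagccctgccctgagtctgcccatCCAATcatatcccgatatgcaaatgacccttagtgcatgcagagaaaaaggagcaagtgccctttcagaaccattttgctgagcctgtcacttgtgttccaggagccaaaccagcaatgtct

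Both windows hold CCAAT at bases 179 to 183, where its first base lies 72 bases before the start site. CCAAT is common, being found in 37.4% of 32851 promoter windows of this length, and TATAAA, which *Aldh1a7* has at bases 7 to 12, in 13.6%. The *Aldh1a2* and *Aldh3a2* windows also contain CCAAT. TGACNNNGC, the core letters of the antioxidant response element, was found among these windows in that of *Aldh1a2* and occurs in 12.4% of all windows. A match describes the letters and does not show that a factor binds.

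Levels are given in TMM-scaled CPM, which compares 1 gene between libraries, and as RPKM, which also divides by the exon length given in the files, where genes are compared with each other. In LP cells *Aldh2* and *Aldh1a3* led the 10 members per length. *Aldh2* measured 124, 90.0 and 65.6 RPKM in the 3 LP libraries and *Aldh1a3* 69.5, 38.8 and 48.4 RPKM. *Aldh2* was the higher of the pair in each of the 3 LP libraries, by 1.36 to 2.32 times, although the ranges of the genes over the 3 libraries overlapped. Of the summed RPKM of the 10 members in LP, *Aldh2* made up 49.0% ± 7.51 (SD, n = 3), *Aldh1a3* 27.5% ± 4.33, *Aldh7a1* 11.2% ± 1.58 and *Aldh3a2* 10.1% ± 5.13. The remaining 6 members were each under 1% of the sum on average.

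The order of *Aldh2* and *Aldh1a3* in LP depended on the gene length used. The files give *Aldh2* an exon length of 2207 bases, whereas its longest coding transcript in GENCODE M21 has 3867 bases; for *Aldh1a3* the lengths are 3401 and 3443. With the GENCODE lengths, an alternative added after seeing the data, *Aldh2* made up 36.8% of the sum in LP (28.9 to 41.7% over the 3 libraries) and *Aldh1a3* 35.7% (29.9 to 40.3%). *Aldh2* was then above *Aldh1a3* in 2 of 3 LP libraries, and in 0 of 3 ML libraries against 2 of 3 with the lengths in the files. In MaSC/basal cells *Aldh2* stayed above *Aldh1a3* in 3 of 3 libraries with either length, by 59.8 to 110 times with the lengths in the files.

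The composition differed in each population. In MaSC/basal cells *Aldh2* made up 71.9% ± 1.48 of the members' RPKM and *Aldh7a1* 13.8% ± 1.09, and *Aldh1a3* 0.949% ± 0.293. In ML cells *Aldh3a2* led with 37.0% ± 9.64, ahead of *Aldh2* with 23.2% ± 3.36 and *Aldh1a3* with 22.7% ± 8.81 on average. In the second ML library *Aldh1a3* (32.5%) was above *Aldh3a2* (27.7%). The summed RPKM of the 10 members ranged from 213 to 251 for MaSC/basal, from 162 to 230 for LP and from 154 to 197 for ML, so that LP overlapped both others. Over all 21 ALDH genes the sums were 306 to 355, 231 to 308 and 240 to 287 RPKM.

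**Figure D1:**
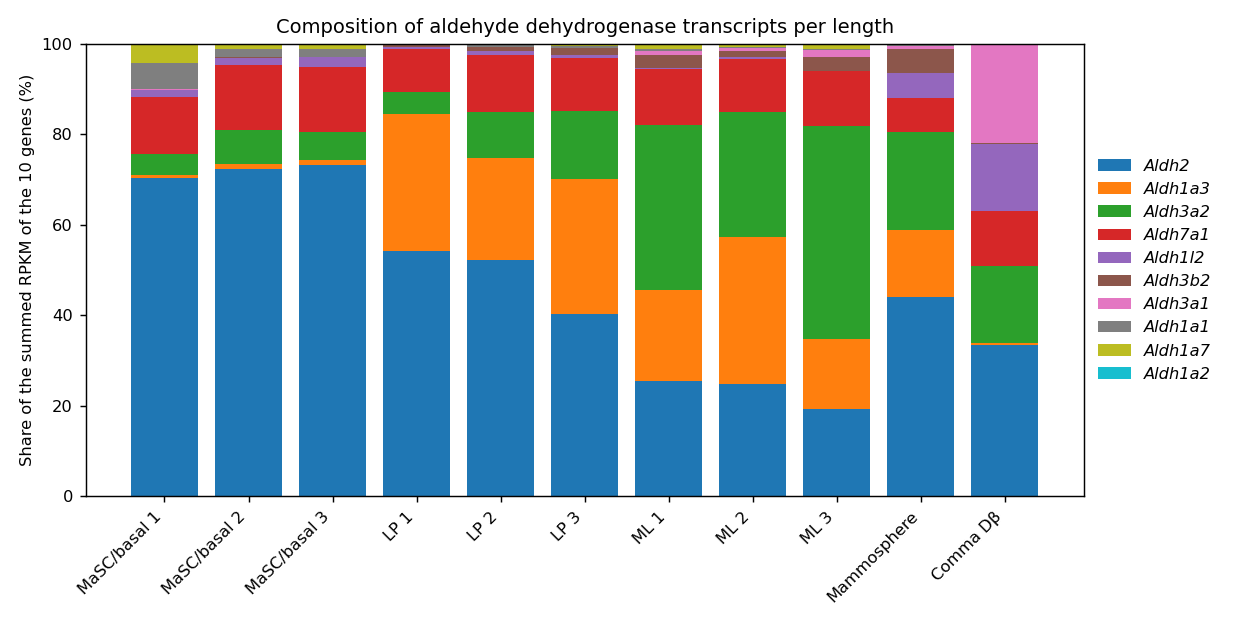
Stacked bars show the share of each of the 10 genes (colours) in their summed RPKM, in percent, for each of the 11 libraries. *Aldh2* takes 70.3 to 73.2% in MaSC/basal libraries and 40.4 to 54.2% in LP, *Aldh1a3* appears with 22.6 to 30.3% in LP, and *Aldh3a2* takes 27.7 to 47.0% in ML.

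Among the 11 other ALDH genes, the highest per length in LP were *Aldh9a1* (18.6 RPKM), an enzyme of aminobutyraldehyde oxidation, *Aldh16a1* (15.8 RPKM) and *Aldh18a1* (13.9 RPKM), which makes a proline precursor. By mean they came after *Aldh7a1* (20.7 RPKM), and *Aldh3a2* (17.8 RPKM) lay between the first and the second of them. Adjacent ranks from the third to the seventh of this order overlapped in their LP libraries.

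The members are next described by role, first the Aldh1a enzymes, and differences between populations come from edgeR's quasi-likelihood test with Benjamini-Hochberg adjustment over the 15422 genes above 0.5 CPM in at least 3 libraries, given as log2 fold change with SE and false discovery rate (FDR). The members' levels in each library are plotted on log axes, and the differences of the 9 members tested follow in a separate plot.

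**Figure D2:**
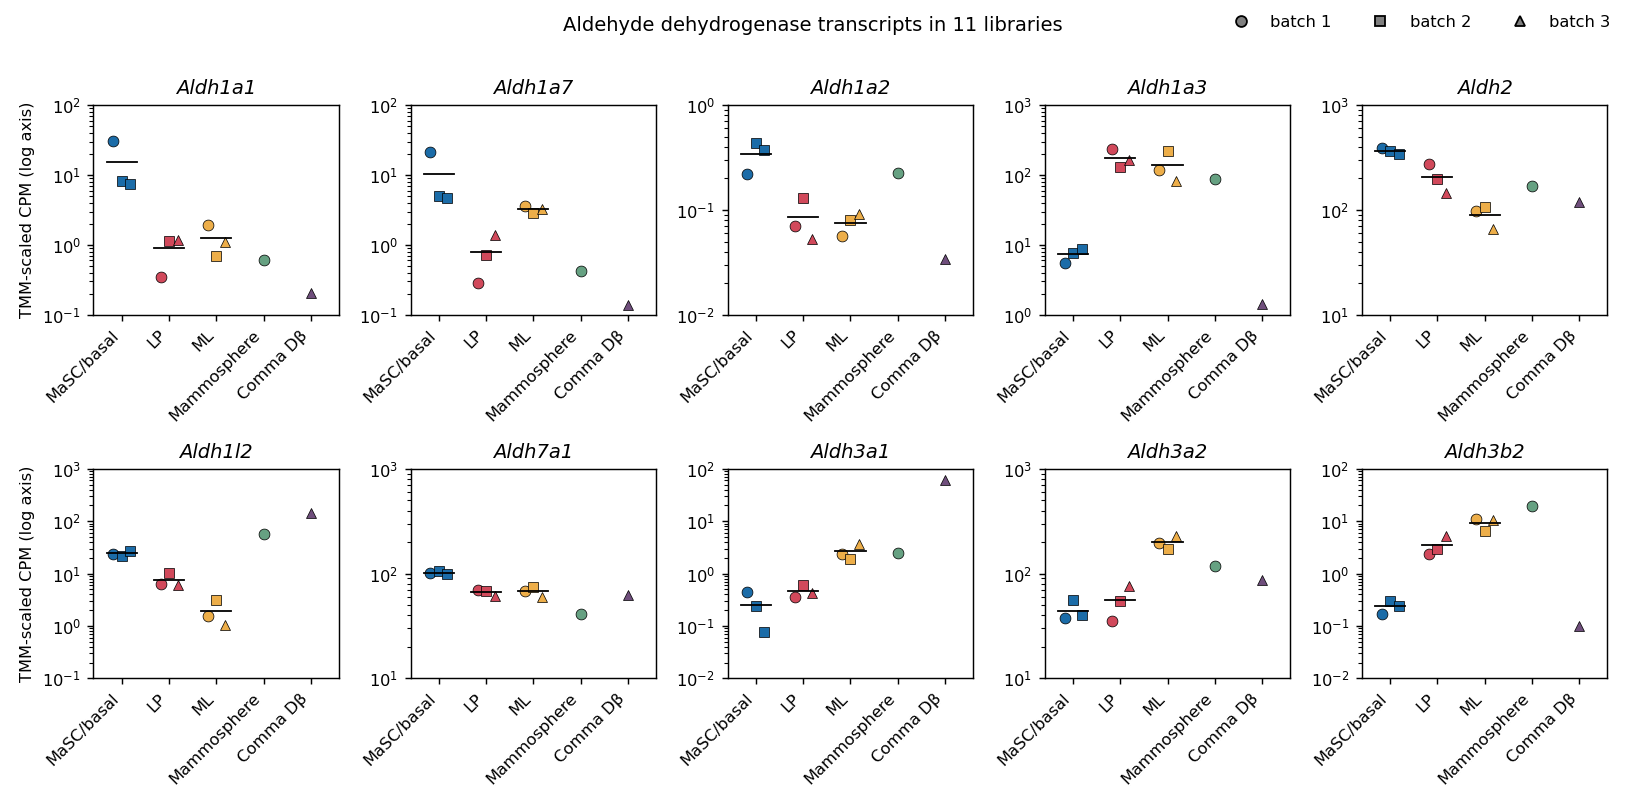
TMM-scaled CPM (log axis, its range differing by panel) of the 10 genes in each library, with colours for cell populations, symbols for library batches and lines for the mean of 3 libraries. *Aldh1a3* sits at 5.46 to 8.86 CPM in MaSC/basal and at 81.2 to 237 CPM in LP and ML, and *Aldh3a1* is at 60.4 CPM in Comma Dβ against at most 3.69 CPM elsewhere.

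**Figure D3:**
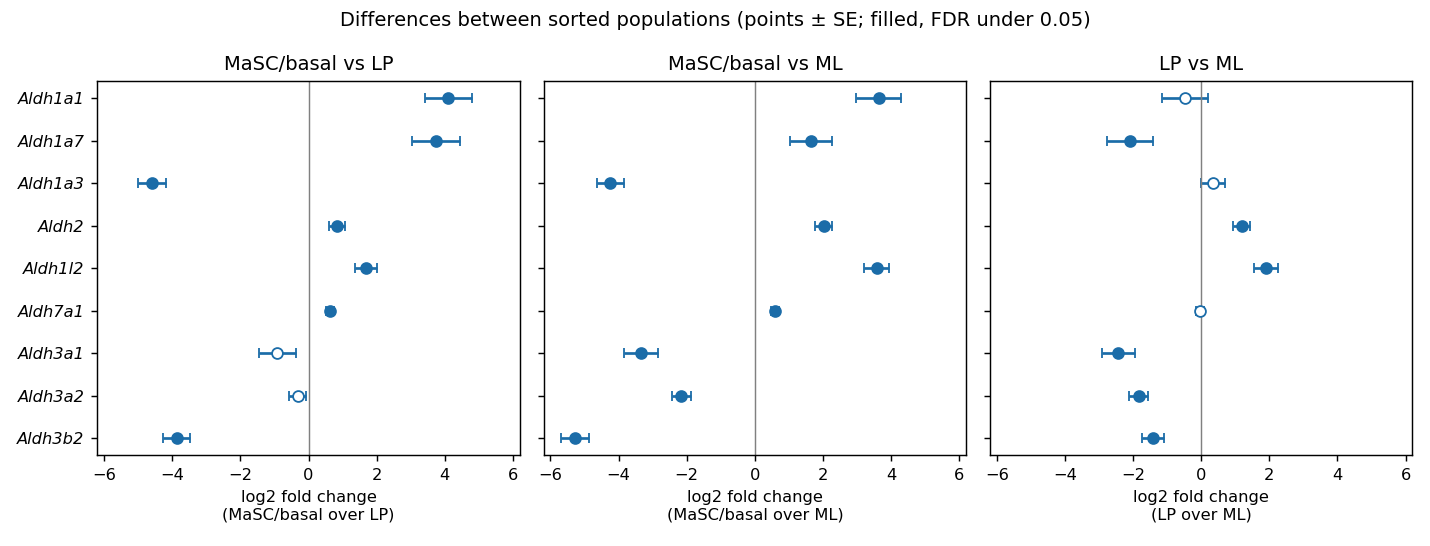
Log2 fold changes with SE of the 9 members tested in the 3 comparisons between sorted populations, with filled points for FDR under 0.05. *Aldh1a3* and *Aldh3b2* lie at −4.60 and −3.87 for MaSC/basal over LP, and *Aldh1a1* and *Aldh1a7* at 4.10 and 3.75.

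*Aldh1a3*, a retinaldehyde dehydrogenase, was the luminal member of this subfamily. It measured 5.46, 7.74 and 8.86 CPM in MaSC/basal, 237, 132 and 165 CPM in LP and 118, 218 and 81.2 CPM in ML libraries. Every LP and ML library lay above every MaSC/basal library, and LP and ML libraries were interleaved. MaSC/basal cells were lower than LP by a log2 fold change of −4.60 ± 0.41 (FDR = 7.54e-06) and lower than ML by −4.25 ± 0.40 (FDR = 1.02e-05). LP over ML was 0.35 ± 0.35 (FDR = 0.472). Within library batches, LP over ML was 1.00 in batch 1, −0.72 in batch 2 and 1.01 in batch 3 on the log2 CPM scale, and without the second ML library the fitted difference was 0.83 ± 0.29 (FDR = 0.0558). The second ML library also had the highest luminal progenitor marker sum in ML, 2797 CPM against 1172 and 855 CPM. Its *Itgb3* level was 34.0 CPM against 8.68 and 4.51 CPM. The part of these markers in the ML levels of *Aldh1a3* was not tested.

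*Aldh1a1*, another retinaldehyde dehydrogenase, and *Aldh1a7*, its close rodent paralog, had the opposite pattern. *Aldh1a1* measured 30.2, 8.25 and 7.50 CPM in MaSC/basal, 0.353, 1.14 and 1.17 CPM in LP and 1.95, 0.704 and 1.09 CPM in ML libraries. MaSC/basal libraries did not overlap with LP or ML, and the first MaSC/basal library was far above the other 2. The log2 fold change of MaSC/basal over LP was 4.10 ± 0.69 (FDR = 0.000596) and over ML 3.64 ± 0.67 (FDR = 0.000948). Without the first MaSC/basal library these were 3.15 ± 0.54 (FDR = 0.00138) and 2.68 ± 0.52 (FDR = 0.00261). LP over ML was −0.47 ± 0.68 (FDR = 0.636).

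*Aldh1a7* measured 21.1, 5.00 and 4.65 CPM in MaSC/basal, 0.282, 0.711 and 1.39 CPM in LP and 3.65, 2.87 and 3.24 CPM in ML libraries. The order was MaSC/basal over ML over LP with no overlap between populations. MaSC/basal over LP was 3.75 ± 0.70 (FDR = 0.00112), and 2.67 ± 0.49 (FDR = 0.00212) without the first MaSC/basal library. MaSC/basal over ML was 1.66 ± 0.61 (FDR = 0.0399). LP over ML was −2.09 ± 0.68 (FDR = 0.0406). Both comparisons with ML were near the threshold. MaSC/basal over ML was 0.58 ± 0.46 (FDR = 0.317) without the first MaSC/basal library, and it also missed the threshold without the second LP library or any one ML library (FDR = 0.0505 to 0.0955). LP over ML was −2.08 ± 0.46 (FDR = 0.0123) without the first MaSC/basal library. It missed the threshold without the first or the second LP library (FDR = 0.123 and 0.120) or any one ML library (FDR = 0.0536 to 0.0953), and with the reads of *Aldh1a1* and *Aldh1a7* summed (−1.44 ± 0.63, FDR = 0.106).

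The ratio of the paralogs' reads set ML cells apart from the rest. *Aldh1a1* had 1.44, 1.65 and 1.61 times the reads of *Aldh1a7* in MaSC/basal libraries and 0.535, 0.245 and 0.338 times in ML libraries. In LP, where the genes had 8 to 61 reads per library, the ratios were 1.25, 1.61 and 0.846. The first MaSC/basal library, highest for both genes, had a ratio close to those of the other MaSC/basal libraries.

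**Figure D4:**
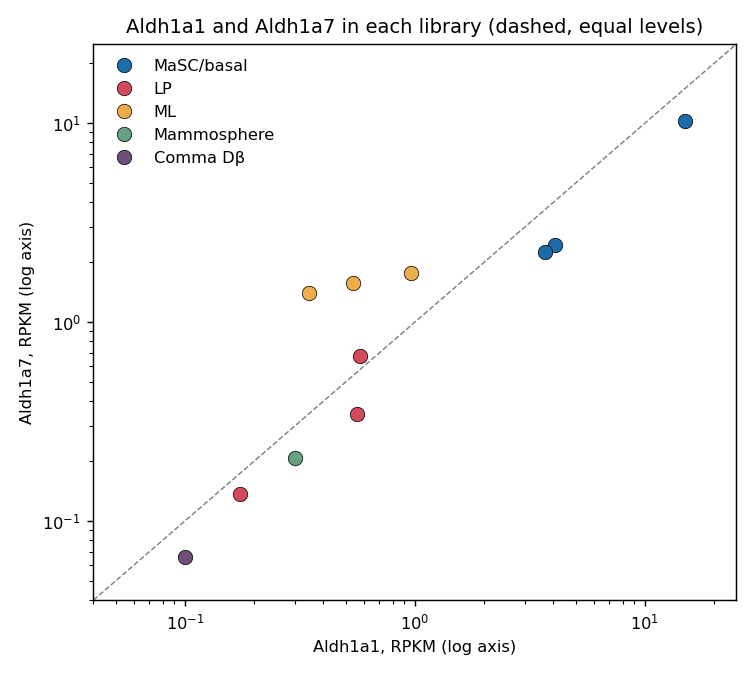
RPKM of *Aldh1a7* against *Aldh1a1* on log axes, 1 point per library, with a dashed line where the levels are equal. MaSC/basal libraries lie to the right of the line, the first of them at 14.9 and 10.2 RPKM, and the 3 ML libraries lie above it.

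Markers of adipocytes, cells next to the epithelium, were also examined because MaSC/basal levels of *Aldh1a1* and *Aldh1a7* varied. The 5 adipocyte markers summed to 1.79 to 4.78 CPM in MaSC/basal libraries and to 0.0353 to 0.487 CPM in LP and ML. *Adipoq*, *Plin1* and *Cidec* were at 0.577, 0.543 and 0.594 CPM in the first MaSC/basal library and at 0.0997 to 0.188 CPM in the others, whereas *Lep* was highest in the second, at 4.27 CPM. Endothelial markers (4 genes) summed to 40.5 to 82.9 CPM in MaSC/basal and to 7.10 to 34.8 CPM in LP and ML. For 4 pericyte markers the sums were 30.3 to 45.6 and 2.79 to 10.2 CPM. In the first MaSC/basal library these 2 sums were 46.4 and 30.3 CPM. The part of all these markers in the levels of *Aldh1a1* and *Aldh1a7* was not tested.

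*Aldh1a2*, the retinaldehyde dehydrogenase of embryonic and stromal tissue, was near the limit of detection. It had 13, 22 and 20 reads in MaSC/basal libraries (0.221, 0.439 and 0.377 CPM), 2, 7 and 1 in LP, and 2, 6 and 2 in ML. It did not reach 0.5 CPM in any library and was not tested. Of the summed RPKM of the 4 Aldh1a genes, *Aldh1a3* therefore made up 97.4 to 99.5% in LP and 91.7 to 97.3% in ML, and 5.99 to 29.9% in MaSC/basal. *Aldh1a1* made up 42.3 to 55.5% of that sum in MaSC/basal and 0.248 to 1.41% in LP.

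*Aldh2*, the mitochondrial enzyme that clears acetaldehyde, fell in steps from MaSC/basal to LP to ML. It measured 389, 369 and 344 CPM in MaSC/basal, 275, 199 and 145 CPM in LP and 97.6, 108 and 65.9 CPM in ML libraries. No population overlapped with another. The log2 fold change was 0.83 ± 0.24 for MaSC/basal over LP (FDR = 0.0142), 2.02 ± 0.25 for MaSC/basal over ML (FDR = 6.96e-05) and 1.19 ± 0.25 for LP over ML (FDR = 0.00608). Without the third LP library MaSC/basal over LP was 0.63 ± 0.24 (FDR = 0.0511). Within the 3 batches LP over ML was 1.49, 0.88 and 1.13 on the log2 CPM scale, a direction already set by the lack of overlap.

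*Aldh1l2*, the mitochondrial 10-formyltetrahydrofolate dehydrogenase, had the same order. It measured 23.7, 21.6 and 27.5 CPM in MaSC/basal, 6.31, 10.1 and 6.04 CPM in LP and 1.56, 3.18 and 1.05 CPM in ML libraries. MaSC/basal over LP was 1.69 ± 0.33 (FDR = 0.00162) and LP over ML 1.89 ± 0.35 (FDR = 0.00389), with no overlap between populations. MaSC/basal over ML was 3.58 ± 0.36 (FDR = 1.77e-05). Without the second ML library, the highest of the 3, LP over ML was 2.50 ± 0.30 and MaSC/basal over ML 4.18 ± 0.31. That library also had the highest luminal progenitor marker sum in ML (2797 CPM), whose part here was not tested.

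*Aldh7a1*, antiquitin of the lysine pathway, had the narrowest range of the 9 members tested over the sorted libraries. It measured 101, 107 and 98.5 CPM in MaSC/basal, 69.1, 68.6 and 60.9 CPM in LP and 68.9, 74.3 and 60.0 CPM in ML libraries. MaSC/basal cells were above LP by 0.62 ± 0.12 (FDR = 0.00138) and above ML by 0.59 ± 0.12 (FDR = 0.00179). LP and ML overlapped, at −0.03 ± 0.12 (FDR = 0.860).

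The Aldh3 genes were highest, of the sorted populations, in ML cells. *Aldh3a2*, the fatty aldehyde dehydrogenase, measured 37.5, 55.4 and 40.4 CPM in MaSC/basal, 35.1, 55.0 and 77.0 CPM in LP and 198, 171 and 227 CPM in ML libraries. ML libraries lay apart and MaSC/basal and LP overlapped. LP over ML was −1.84 ± 0.27 (FDR = 0.00143), MaSC/basal over ML −2.16 ± 0.27 (FDR = 7.76e-05) and MaSC/basal over LP −0.32 ± 0.26 (FDR = 0.317).

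*Aldh3a1*, known from cornea and from induction by aromatic hydrocarbons, was scarce in all sorted cells. It measured 0.441, 0.239 and 0.0754 CPM in MaSC/basal (26, 12 and 4 reads), 0.353, 0.618 and 0.427 CPM in LP and 2.40, 1.89 and 3.69 CPM in ML libraries. ML exceeded LP (log2 fold change of LP over ML −2.43 ± 0.48, FDR = 0.00493) and MaSC/basal (−3.34 ± 0.49, FDR = 0.000200, and −4.03 ± 0.52 without the first MaSC/basal library). MaSC/basal and LP overlapped, at −0.91 ± 0.53 (FDR = 0.169), and without that library the value was −1.60 ± 0.55 (FDR = 0.0375).

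*Aldh3b2*, which oxidizes medium- and long-chain aldehydes, measured 0.170, 0.299 and 0.245 CPM in MaSC/basal, 2.40, 3.00 and 5.18 CPM in LP and 11.1, 6.45 and 10.3 CPM in ML libraries. The populations did not overlap. MaSC/basal over LP was −3.87 ± 0.40 (FDR = 2.15e-05), MaSC/basal over ML −5.28 ± 0.41 (FDR = 2.83e-06) and LP over ML −1.41 ± 0.33 (FDR = 0.0107). Its paralogs *Aldh3b1* and *Aldh3b3*, which are not members, rose in the same order. From MaSC/basal through LP to ML, mean CPM was 1.91, 7.18 and 22.7 for *Aldh3b1*, and 0.0989, 1.04 and 2.43 for *Aldh3b3*.

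Between MaSC/basal and LP cells, 7 of the 9 members tested passed FDR under 0.05, where 57.4% of all genes tested passed. Of the 7, *Aldh1a1*, *Aldh1a7*, *Aldh1l2*, *Aldh2* and *Aldh7a1* were higher in MaSC/basal (5 members, background 29.4%) and *Aldh1a3* and *Aldh3b2* in LP (2 members, background 28%). Between MaSC/basal and ML all 9 members tested passed, against 58.7% of all genes, the same 5 higher in MaSC/basal (background 28.9%) and 4 higher in ML (29.7%). Between LP and ML 6 passed, against 31.8%, with *Aldh2* and *Aldh1l2* higher in LP (2 members, 14.3%) and *Aldh1a7*, *Aldh3a1*, *Aldh3a2* and *Aldh3b2* higher in ML (4 members, 17.5%). Libraries of the compared populations did not overlap for 7, 9 and 6 of the members tested, against 63.9%, 65.5% and 47.9% of all genes. With 9 genes and such backgrounds the counts say little by themselves. A stricter rule asked for FDR under 0.001 together with an absolute log2 fold change above 2. Between MaSC/basal and LP it took 3 members (16.8% of all genes), *Aldh1a1* with the higher level in MaSC/basal (1 member, 9.64%) and *Aldh1a3* and *Aldh3b2* with the higher level in LP (2 members, 7.15%). For MaSC/basal against ML it took 7 members (18.3%), 3 higher in MaSC/basal (10.2%) and 4 in ML (8.09%). With the labelled batch as a block these counts were 2 and 5, *Aldh1a1* being lost from both and *Aldh2* from the second. Without the first MaSC/basal library *Aldh1a1* also missed the stricter rule in both (FDR = 0.00138 and 0.00261). *Aldh2* then missed it against ML, at a log2 fold change of 1.99. Against LP, *Aldh1a1* missed it without any one LP library (FDR = 0.00258 to 0.00271). Against ML, *Aldh1a1* missed it without any one ML library (FDR = 0.00193 to 0.00423). Between LP and ML it took 0 of 9 in edgeR (0.869%, with 0.441% higher in LP and 0.428% in ML), and 1 in DESeq2. The median absolute log2 fold change of the 9 members was 1.69, 3.34 and 1.41 in the 3 comparisons, and that of all genes 0.69, 0.72 and 0.43. For the 10 other ALDH genes tested it was 0.81, 0.75 and 0.61. The members were chosen with earlier results of these data known, so these figures describe the chosen genes only. *Aldh3a1* and *Aldh3b2* were under 0.5 CPM in every MaSC/basal library and passed the filter on low counts through other libraries. Each called member kept its direction in every batch that held both populations, which were 2 batches for comparisons with MaSC/basal and 3 for LP with ML. The libraries of each called member did not overlap between the populations, so its direction within batches could not differ and adds no support.

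Mammosphere cells differed from the sorted MaSC/basal cells in the members tested. Their library is of batch 1, as is the first MaSC/basal library, while the other MaSC/basal libraries are of batch 2. As each culture is 1 library, a difference was counted without a test where it passed 2-fold from the MaSC/basal mean and lay outside the range of the 3 MaSC/basal libraries. All 9 members tested did so in mammospheres, where 39.6% of all genes did, 5 being higher (background 19.6%) and 4 lower (20%). Without scaling factors 8 did, *Aldh2* being the exception at −0.89. Of the 10 other ALDH genes tested, 3 were higher and 3 lower by the same rule with scaling. *Aldh1a3* was at 88.4 CPM, 3.61 on the log2 scale above the MaSC/basal mean and within the range of the ML libraries. *Aldh3b2* was at 19.8 CPM (6.15 above), higher than in any sorted library, and *Aldh3b3* at 33.1 CPM (7.84 above). In the MaSC/basal libraries *Aldh3b2* had 10, 15 and 13 reads and *Aldh3b3* 6, 6 and 4 reads. The size of both differences therefore depends on counts near the limit of detection. *Aldh3a1*, *Aldh3a2* and *Aldh1l2* were also higher, at 2.53, 118 and 57.5 CPM. *Aldh1a1* and *Aldh1a7* were lower, at 0.609 and 0.428 CPM, as were *Aldh2* at 169 CPM and *Aldh7a1* at 41.4 CPM.

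*Aldh3b2* had 0.599 reads per read of *Aldh3b3* in mammospheres, against 1.67 to 4.69 in the 9 sorted libraries. Since reads shared by this pair may have been lost or split, the ratio carries the uncertainty stated above. *Aldh1a3* made up 97.7% of the Aldh1a RPKM in mammospheres. The summed CPM of 5 luminal markers was 3162 in mammospheres, 1402 to 1692 in MaSC/basal and 12763 to 16399 in LP and ML, and that of 5 basal markers was 3366. The 4 luminal progenitor markers summed to 1608 CPM in mammospheres against 74.1 to 92.8 among MaSC/basal libraries, and 4 pericyte markers to 207 against 30.3 to 45.6. Most of the latter sum was *Pdgfrb* (151 CPM) and *Cspg4* (54.4 CPM). *Rgs5* was lower in mammospheres (1.13 CPM against a MaSC/basal mean of 4.01) and *Kcnj8* differed little (0.654 against 0.722). The part of these markers in the mammosphere levels was not tested.

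In Comma Dβ cells, compared with the same MaSC/basal libraries, 6 of 9 members passed the same rule, against 41.6% of all genes, with 2 higher (background 16.9%) and 4 lower (24.8%). *Aldh3a1* stood at 60.4 CPM (1774 reads), 7.87 on the log2 scale above the MaSC/basal mean. *Aldh1l2* stood at 142 CPM, 2.56 above. *Aldh1a3* was at 1.43 CPM, *Aldh1a1* at 0.204 CPM (6 reads), *Aldh1a7* at 0.136 CPM (4 reads) and *Aldh2* at 118 CPM, each lower than in MaSC/basal cells. *Aldh3a2* at 86.0 CPM, *Aldh7a1* at 62.2 CPM and *Aldh3b2* at 0.102 CPM (3 reads) did not pass. Without the first MaSC/basal library 7 members passed, *Aldh3b2* being the addition. Without the second MaSC/basal library *Aldh3a2* passed, at 1.14 above the mean of the others. In strain, origin and culture this line differs from the sorted cells, and its library is of batch 3, which held no MaSC/basal library, so that these cannot be told apart. Without the first MaSC/basal library the differences of *Aldh1a1* and *Aldh1a7* were −4.98 and −4.73 in Comma Dβ, against −5.62 and −5.44 with it, and −3.59 and −3.36 in mammospheres, against −4.24 and −4.06.

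**Figure D5:**
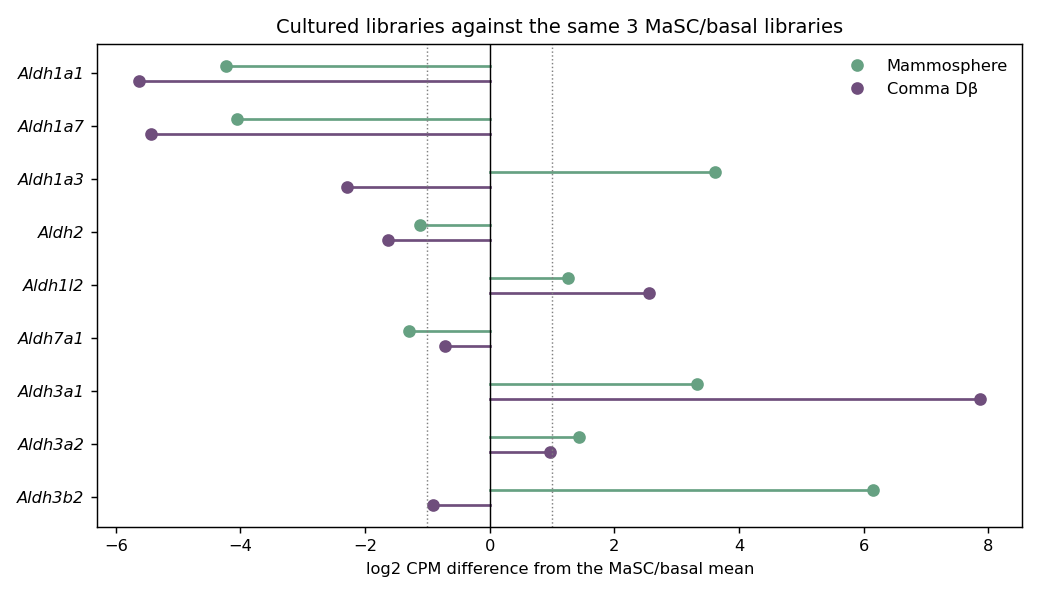
Difference in log2 CPM (prior count 2) of the mammosphere and the Comma Dβ library from the mean of the same 3 MaSC/basal libraries, with dotted lines at 2-fold. *Aldh1a3* lies at 3.61 in mammospheres and −2.30 in Comma Dβ, and *Aldh3a1* at 3.32 and 7.87.

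Genes around the members were read from lists by pathway, whose counts stand against 57.4%, 58.7% and 31.8% of all genes passing FDR under 0.05 in the 3 comparisons, in the order MaSC/basal with LP, MaSC/basal with ML and LP with ML. The first lists are of retinoid metabolism. Of 7 genes that oxidize retinol or reduce retinaldehyde, 3 passed FDR under 0.05 between MaSC/basal and LP (2 higher in MaSC/basal), 6 between MaSC/basal and ML (3 higher in each) and 3 between LP and ML (1 higher in LP). *Dhrs3*, which reduces retinaldehyde back to retinol, was higher in LP than in MaSC/basal (84.5 against 13.3 CPM, FDR = 4.49e-05), as *Aldh1a3* was. *Dhrs9* was higher in LP than in ML (13.8 against 2.41 CPM, FDR = 0.00165). Of 6 genes of retinoid uptake, binding and storage, 4 were higher in MaSC/basal than in LP and 1 lower. *Crabp2*, which carries retinoic acid to the nucleus, was the 1 lower in MaSC/basal, with 23.9 CPM against 61.4 CPM in LP (FDR = 0.00167). In the other comparisons 3 of these 6 were higher in MaSC/basal than in ML and none lower, and LP differed from ML in 1 each way.

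Of 3 genes of retinoic acid breakdown, 1 was tested: *Cyp26b1* was higher in MaSC/basal (5.55 CPM) than in LP (2.35 CPM, FDR = 0.00461) and ML (1.83 CPM, FDR = 0.000971). Of 5 retinoic acid receptors tested, *Rarb* was higher in MaSC/basal than in LP (2.54 against 1.44 CPM, FDR = 0.0169), and *Rara* was higher in ML than in LP (90.0 against 55.6 CPM, FDR = 0.00315). Receptor calls numbered 1 of 5 for MaSC/basal with LP and 2 of 5 in each of the other comparisons. Mammospheres, where *Aldh1a3* was at 88.4 CPM, held 85.3 CPM of *Cyp26b1*, 29.1 CPM of *Rarb* and 216 CPM of *Crabp2*. Each of these was past 2-fold above the MaSC/basal mean. In Comma Dβ, where *Aldh1a3* was at 1.43 CPM, *Cyp26b1* at 13.0 CPM and *Crabp2* at 60.3 CPM passed that rule as well, while *Rarb*, at 3.17 CPM, did not.

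Other enzymes that handle aldehydes were tested for 10 of 12 genes, of which 7 passed in each comparison, against the same 57.4%, 58.7% and 31.8% of all genes. *Xdh*, xanthine dehydrogenase of the milk fat globule, was higher in LP (768 CPM) than in MaSC/basal (58.7 CPM, FDR = 3.72e-05) and ML (155 CPM, FDR = 0.00251). *Cbr3*, a carbonyl reductase, was higher in MaSC/basal (17.3 CPM) than in LP (1.44 CPM, FDR = 1.73e-05). Of the 10 other ALDH genes tested, 7 passed between MaSC/basal and LP (5 higher in MaSC/basal), 7 between MaSC/basal and ML (2 higher) and 5 between LP and ML, all 5 higher in ML. *Aldh4a1*, of proline breakdown, was higher in MaSC/basal (57.1 CPM) than in LP (16.6 CPM, FDR = 3.15e-05). *Aldh1l1*, the cytosolic relative of *Aldh1l2*, was higher in ML (6.67 CPM) than in LP (1.88 CPM, FDR = 0.00184), opposite to *Aldh1l2*.

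Of 13 folate genes near *Aldh1l2* in metabolism, 8 were higher in MaSC/basal than in LP and 1 lower, where 29.4% and 28% of all genes were. Against ML 7 were higher and 3 lower, where 28.9% and 29.7% of all genes were. *Mthfd1l*, a mitochondrial formate synthase, was at 20.4 CPM in MaSC/basal and 4.63 in LP (FDR = 1.11e-05), and *Tyms* at 28.2 and 7.94 CPM (FDR = 4.37e-05). None of the 13 was higher in LP than in ML at FDR under 0.05, while *Aldh1l2* was, and 3 were lower. In Comma Dβ, where *Aldh1l2* was at 142 CPM, 8 of the 13 were past 2-fold above the MaSC/basal mean, as were 16.9% of all genes.

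Beside *Aldh3a2*, 8 genes of fatty aldehyde and sphingolipid turnover were tested. Of these 7 passed between MaSC/basal and LP (2 higher in MaSC/basal), 5 between MaSC/basal and ML (2 higher) and 4 between LP and ML (2 each way), where 57.4%, 58.7% and 31.8% of all genes passed. *Phyh*, of branched fatty acid oxidation, was highest in ML like *Aldh3a2*, with 180 CPM there, 39.9 CPM for LP (FDR = 0.000811 between them) and 14.2 CPM for MaSC/basal. *Far1*, which makes fatty alcohols, was higher in LP (539 CPM) than in ML (217 CPM, FDR = 0.00454). Of 5 lysine breakdown genes tested, beside *Aldh7a1*, 3 passed between MaSC/basal and LP, 2 between MaSC/basal and ML and 1 between LP and ML. *Aass*, which begins that pathway, was at 20.5 CPM in LP and 7.25 in ML (FDR = 0.0101), where *Aldh7a1* was at 66.2 and 67.7 CPM.

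Genes of the NRF2 pathway, which induces some ALDH genes under electrophile stress, went both ways. Of 13 tested, 9 passed between MaSC/basal and LP (6 higher in MaSC/basal), 8 between MaSC/basal and ML (7 higher) and 6 between LP and ML (3 each way), where 57.4%, 58.7% and 31.8% of all genes passed. *Nqo1* was higher in LP (59.5 CPM) than in MaSC/basal (18.4 CPM, FDR = 0.000671) and ML (15.6 CPM, FDR = 0.00165). *Gclc*, of glutathione synthesis, was higher in ML (400.1 CPM) than in LP (133 CPM, FDR = 0.00781), as *Aldh3a1* was.

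The genes whose centred log2 CPM over the 11 libraries lay nearest to *Aldh2* were *Prcp*, *Cnksr3* and *Zhx3*, with root mean square differences of 0.28, 0.30 and 0.30. *Prcp*, a lysosomal carboxypeptidase, had 37.8 to 41.2 CPM among MaSC/basal libraries, 17.7 to 23.4 among LP and 5.74 to 12.0 among ML. Nearest to *Aldh1a3* were *Clu*, *Mansc1* and *Slfn2*, at 0.45, 0.45 and 0.48. *Clu*, the secreted chaperone clusterin, had 39.9 to 56.4 CPM among MaSC/basal libraries, 1711 to 2222 among LP, 999 to 1387 among ML, and 927 and 18.3 CPM in mammospheres and Comma Dβ. These are descriptions of likeness over libraries that differ in depth and of which some share a batch.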

How the data were processed

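RNA-seq was read as the raw counts per Entrez gene that the authors deposited for each of the 11 libraries, made from 100 bp single-end reads aligned to mm10 with Rsubread and assigned with featureCounts. The submitters' processing notes also name CASAVA 1.8.0, edgeR 3.6.2 and limma 3.20.5. Exon lengths came from the same files. Groups came from the sample labels. In R 4.3.3 with edgeR 4.0.16, genes over 0.5 CPM in at least 3 libraries were kept (15422) and TMM factors computed. A quasi-likelihood model with 1 mean per sample type was fitted to all libraries. It was also run on simulated counts with a common dispersion for all genes and no batch effect. That run checks the code and does not show how the test performs on these data. SE is the log2 fold change over the square root of F. Log2 CPM used a prior count of 2. Alternatives used limma 3.58.1 and DESeq2 1.42.0. Symbols came from RefSeq for 25275 genes and GENCODE for 18. Sequences came from GENCODE M21 and RefSeq GRCm38.p6.

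The members, gene lists and tests were chosen with earlier results of these data known. Named genes were the 10 members, the strongest called genes of each list in each direction (at most 2, of which some are given), the 3 other ALDH genes highest in LP, and the 3 genes nearest to the members leading LP by RPKM and by fold change. List genes named for the cultures were picked after their values were seen. The labels give library batches, shared by same-numbered LP and ML libraries. Deviations from the group means of same-batch LP and ML libraries correlated at 0.320, 0.313 and 0.526. MaSC/basal libraries came from batches 1, 2 and 2. One gene of the retinoid lists is not reported here.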

Additional observations from a re-analysis of the deposited data

How the results depend on the processing

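Of 468 log2 fold changes of members recomputed under other settings (DESeq2 size factors, no scaling factors, other filters, limma voom, the DESeq2 Wald test, the 9 primary libraries alone, batch as a replicate block, leaving out each primary library, and summed paralogs), 450 kept their direction and side of FDR 0.05, 14 lost the call, 1 gained it and 3 turned sign. The 3 were uncalled LP to ML differences: leaving out 1 library in turn gave −0.12 to 0.037 for *Aldh7a1*, which was above 0 without the third LP library and, at 0.034, without the second ML library. It gave −0.80 to 0.045 for *Aldh1a1*, above 0 without the first ML library. Of the lost calls, all but that of *Aldh2* concerned *Aldh1a7*. In limma voom, *Aldh1a7* had 1.34 (FDR = 0.0754) for MaSC/basal over ML and −2.29 (FDR = 0.0817) for LP over ML. When the labelled batch entered as a replicate block, 7, 9 and 6 members passed in the 3 comparisons, as without it, and 2, 5 and 0 passed the stricter rule. No scaling moved the median of all genes to −0.19 for LP over ML, with 6 members called. Between LP and ML the stricter rule took 1 member under the DESeq2 Wald test (*Aldh3a1*) and 0 to 1 when a library was left out (*Aldh1l2* without the second ML library). At 4-fold, 5 members passed in mammospheres. Leaving out a library gave 6 to 8, 8 to 9 and 5 to 6 members called. The share of *Aldh2* in LP was 35.2% over all 21 ALDH genes, 39.2% without length scaling and 36.8% with GENCODE lengths, the last through the longer transcript. A level of 0.5 CPM was 9.36 to 37.6 reads depending on the library, which limits what can be said of *Aldh1a2* and *Aldh3a1*, and limits set by 3 reads cover counting error only.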
